A study of Mus musculus with 6 samples.

Results

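Interferon-stimulated genes are the genes that cells switch on when interferons reach their surface, and 39 of them were followed here across mouse pancreatic islets with and without Sec16b. The 39 symbols are targets of type I or type II interferon, listed by name, and each was matched by its exact symbol to a row of the authors' table of 18437 genes. All 39 were found, and all 39 passed the filter on low values that left 16042 genes for testing. Islets, which hold the endocrine cells of the pancreas, came from male mice aged 30 weeks. The groups were 3 libraries from Sec16b+/+ mice (wild type) and 3 from Sec16b-/- mice (knockout). The labels give no treatment, strain or way in which the Sec16b allele was made. They do not say that each library came from its own animal, so each p-value measures only how these samples spread, which may be technical.

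Interferons signal through Jak kinases to Stat proteins. Type I interferons drive a complex that holds Stat2 and Irf9 and binds the interferon-stimulated response element (ISRE), and type II interferon acts through the gamma-activated site (GAS). The products include sensors of foreign nucleic acid, enzymes and membrane proteins that block viral replication, GTPases that attack pathogen vacuoles, and feedback inhibitors. Beta cells respond strongly to both types of interferon, and interferon signatures are known from islets in autoimmune diabetes.

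Promoter sequences from RefSeq (GRCm38.p6) showed both elements in part of the members. The table covers 250 bases before and 50 bases after each start, and 28 of the 39 symbols matched, with 32 windows. The ISRE core GAAANNGAAA was searched on both strands and stood in a window of 16 of the 28 members, or in 50% of their windows, against 3.44% of all 32851 windows of that length. The GAS core TTCNNNGAA, which reads the same on both strands, stood in a window of 10 of the 28 members, or in 31.3% of their windows, against 8.30% of all windows. Copies of the ISRE core can share letters, as the 3 in Isg15 and the 2 in Irgm1 do, and a match is a description of the sequence and not a measured binding site.

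The following stretches, each 80 bases upstream of the start and written 5′ to 3′ on the gene's strand, show the ISRE core in capitals for members of different roles that are described below. An ISRE on the opposite strand reads as its reverse complement.
Isg15: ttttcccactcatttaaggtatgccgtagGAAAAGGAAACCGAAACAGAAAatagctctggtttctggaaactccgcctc
Ifit1: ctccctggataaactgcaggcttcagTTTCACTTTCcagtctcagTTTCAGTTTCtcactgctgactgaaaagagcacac
Ifit3: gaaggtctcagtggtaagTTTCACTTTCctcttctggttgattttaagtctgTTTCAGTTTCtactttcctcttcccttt
Rsad2: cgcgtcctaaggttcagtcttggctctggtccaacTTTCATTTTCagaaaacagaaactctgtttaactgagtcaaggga
Stat2: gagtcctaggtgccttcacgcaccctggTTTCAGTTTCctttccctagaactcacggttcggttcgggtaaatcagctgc
Oas1a: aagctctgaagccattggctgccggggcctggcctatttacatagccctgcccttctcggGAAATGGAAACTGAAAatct
Gbp2: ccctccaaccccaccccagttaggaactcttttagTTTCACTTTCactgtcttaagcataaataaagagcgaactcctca
Irgm1: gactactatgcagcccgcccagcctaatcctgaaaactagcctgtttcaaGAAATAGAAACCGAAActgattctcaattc
In GRCm38.p6 they lie at Isg15 chr4:156200846-156200925 (minus strand), Ifit1 chr19:34640759-34640838 (plus strand), Ifit3 chr19:34583355-34583434 (plus strand), Rsad2 chr12:26456528-26456607 (minus strand), Stat2 chr10:128270248-128270327 (plus strand), Oas1a chr5:120907526-120907605 (minus strand), Gbp2 chr3:142620569-142620648 (plus strand) and Irgm1 chr11:48871421-48871500 (minus strand). The build behind the deposited values is not given in the sources used here, and the sequences were matched by symbol only.

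In the next pair the capitals mark the GAS core. Irf1 is shown as the transcription factor of the type II response, and Samhd1 as the member for which knockout replicate 1 was not the highest library.
Irf1: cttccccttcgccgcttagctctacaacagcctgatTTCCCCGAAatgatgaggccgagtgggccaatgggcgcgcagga
Samhd1: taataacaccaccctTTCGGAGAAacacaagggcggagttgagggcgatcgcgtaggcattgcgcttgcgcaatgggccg
They lie at Irf1 chr11:53769888-53769967 (plus strand) and Samhd1 chr2:157135267-157135346 (minus strand). The windows of Irf1 and Samhd1 held no ISRE core in these letters. The 16 members with an ISRE core had a median log2 fold change of 0.33 between genotypes, the 12 with a window and no such core 0.40, and the 11 with no matched window 0.53.

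Each value is a read count scaled by the authors with a size factor for its library, so the same gene can be compared between libraries. The reads recovered from them came to between 22071895 and 26806787 per library. Sec16b, the check of the labels, was at 1655, 773 and 1786 in wild type replicates 1, 2 and 3 and at 553, 433 and 749.5 in knockout replicates 1, 2 and 3. All 3 knockout libraries lay below all 3 wild type libraries, as they did in 838 of all 16042 genes tested. The margin was small between wild type replicate 2 (773) and knockout replicate 3 (749.5). Transcript was left in each knockout library, and the values do not show which part of the gene those reads came from. The log2 fold change was −1.22 (SE 0.35) and did not pass in limma (adjusted p = 0.993). In whole islet RNA, fewer cells of a type and less RNA per cell cannot be told apart. The islet markers Ins1, Ins2 and Gcg were present in all 6 libraries, and 9 of 9 beta cell markers were tested. All 9 were below 0 between genotypes (median log2 fold change −0.14), and 6 of 7 markers of alpha, delta and PP cells were above 0 (median 0.24). Of these Ppy and Pyy had an unadjusted p under 0.05 in limma, and no islet marker passed adjustment. The part of islet cell makeup in the members' levels was not tested.

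The interferon-stimulated genes moved together from library to library, and the libraries that carried them came from both genotypes. Knockout replicate 1 was the highest of the 6 libraries for 38 of 39 members (97.4%), against 20.5% of all genes tested. Wild type replicate 3 was the lowest for 34 of 39 (87.2%), against 15.9% of all genes. Knockout replicate 1 and wild type replicate 2 were the highest pair of libraries for 34 of 39 members (87.2%), against 6.99% of all genes. The median member was 4.18-fold higher in knockout replicate 1 than in wild type replicate 3, and 2.91-fold higher in wild type replicate 2 than in wild type replicate 3. Over all genes tested the first of these medians was 0.992.

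**Figure D1:**
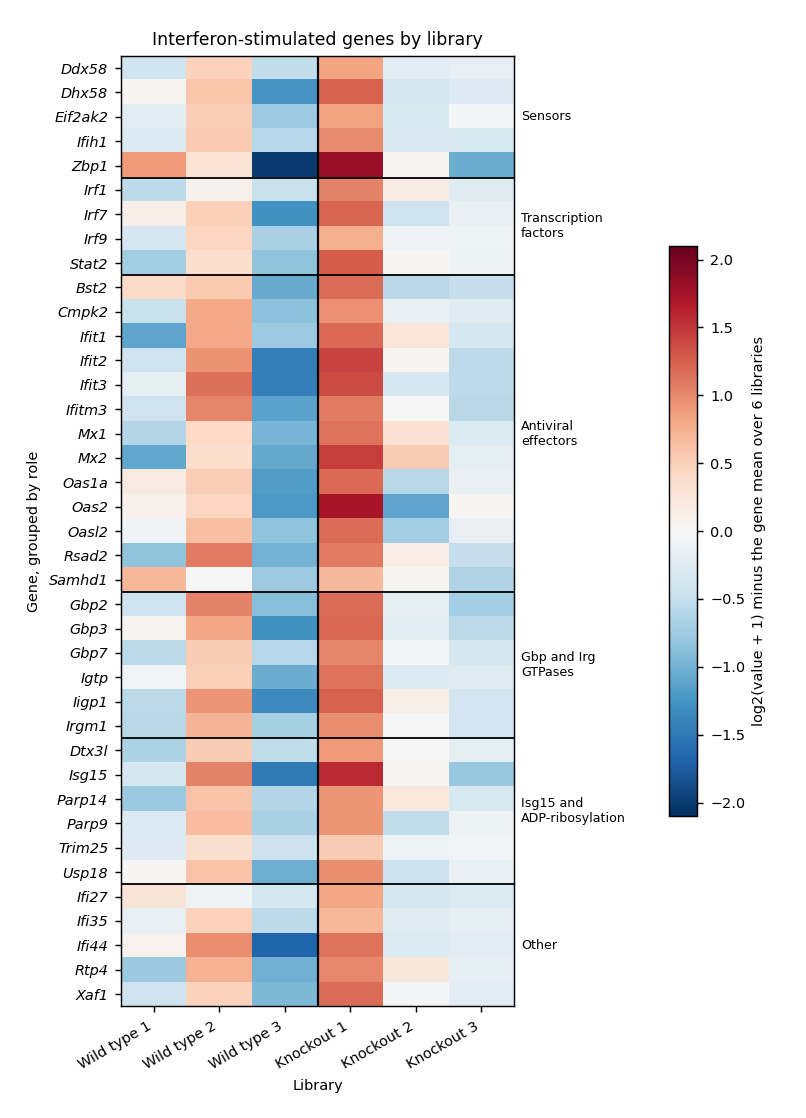
Each cell shows log2(value + 1) of a gene in a library minus that gene's mean over the 6 libraries, with rows grouped by role and the genotypes parted by a vertical line. Knockout 1 and wild type 2 are the red columns in nearly every row, and wild type 3 is the bluest, while knockout 2 and knockout 3 lie between.

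The mean log2(value + 1) of the 39 members was 9.74, 10.62 and 9.06 in the wild type libraries against 11.13, 9.87 and 9.70 in knockout replicates 1, 2 and 3. Wild type replicate 2 thus lay above knockout replicates 2 and 3, and only knockout replicate 1 lay above every wild type library. Within wild type the highest library was above the lowest by a median of 2.91-fold over the members, against 1.33-fold over all genes tested, and within knockout by 2.69-fold against 1.34-fold. The wild type libraries differed by more than 2-fold in 35 of 39 members, against 19.0% of all genes, and the knockout libraries in 36 of 39, against 19.2%.

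Among the transcription factors that carry the response, Stat2 and Irf1 had the larger differences between genotypes. Stat2, a subunit of the type I complex, was at 1305, 2792 and 1202 in the wild type libraries against 5229, 2199 and 2008 in knockout replicates 1, 2 and 3. Wild type replicate 2 lay above knockout replicates 2 and 3, while wild type replicates 1 and 3 lay below every knockout library. Its log2 fold change, knockout minus wild type, was 0.80 (SE 0.45). Irf1, an early target of type II interferon, was at 1049.6, 1642 and 1111 in the wild type libraries against 3191, 1726 and 1288 in knockout, a log2 fold change of 0.63 (SE 0.34). For Irf1 only knockout replicate 3 fell short of wild type replicate 2. Irf9, which gives the type I complex its contact with DNA, had 0.39 (SE 0.34). Irf7, which amplifies interferon gene induction, was at 1353, 1761 and 513 in the wild type libraries against 2883, 913 and 1127 in knockout, with a log2 fold change of 0.43 (SE 0.57). For Irf7 the wild type library with the lowest value and knockout replicate 1 with the highest were 5.62-fold apart, and knockout replicates 2 and 3 lay below wild type replicates 1 and 2.

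The 13 antiviral effectors had a median log2 fold change of 0.37. Mx2, a dynamin-like GTPase, had the largest fold change of the 39, at 112, 312 and 113 in the wild type libraries against 659, 349 and 207 in knockout replicates 1, 2 and 3. Knockout replicates 1 and 2 lay above all wild type libraries and knockout replicate 3 below wild type replicate 2. The means were 179 ± 115 (SD, n = 3) for wild type, against 405 ± 231 (SD, n = 3) for knockout, a log2 fold change of 1.19 (SE 0.54) with a 95% interval of −0.089 to 2.47. Its neighbour and relative Mx1 was at 276, 566 and 215 in the wild type libraries against 937, 524 and 348 in knockout, a log2 fold change of 0.78 (SE 0.46). For Mx1 knockout replicate 1 alone lay above wild type replicate 2.

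The Ifit genes lie in a cluster and encode proteins that bind foreign RNA. Ifit1 was at 1878, 7042 and 2389 in the wild type libraries against 9201, 4840.2 and 3127 in knockout, a log2 fold change of 0.71 (SE 0.57). Ifit3 was at 1998, 5125 and 848 in the wild type libraries against 5966, 1792 and 1571 in knockout, 0.32 (SE 0.74), with wild type replicate 2 above wild type replicate 3 by 6.04-fold. In Ifit3 knockout replicate 1 was only 1.16-fold above wild type replicate 2, and knockout replicates 2 and 3 lay below wild type replicate 1. Ifit2 had 0.61 (SE 0.69). Ifit3 has a close copy, Ifit3b, and Oas1a has Oas1g, so reads could be shared between them and these values are uncertain.

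Rsad2 encodes viperin, which makes a chain-terminating nucleotide, and Cmpk2, beside it, a nucleotide kinase. Rsad2 was at 2948, 11339.7 and 2679 in the wild type libraries against 11372, 5830.4 and 3779 in knockout, so that its highest wild type and highest knockout library were nearly equal, and its log2 fold change was 0.49 (SE 0.63). Cmpk2 followed the same library order, with 0.37 (SE 0.49). The Oas genes make the oligoadenylates that activate RNase L. Oas2 was at 483, 621 and 195 in the wild type libraries against 1513, 209 and 464 in knockout, where the knockout libraries differed 7.24-fold. Its log2 fold change was 0.44 (SE 0.75), with knockout replicate 1 far above its group and knockout replicate 2 near the lowest wild type library. Oas1a had 0.31 (SE 0.58) and Oasl2 0.20 (SE 0.54). Of the membrane proteins, Ifitm3, which blocks fusion of viral envelopes, had 0.35 (SE 0.62), and Bst2, which tethers virions, 0.075 (SE 0.60).

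Samhd1, a dNTP hydrolase, was the member that went against the shared pattern. It was at 1762, 1084 and 640.1 in the wild type libraries against 1757, 1114 and 702 in knockout replicates 1, 2 and 3. Wild type replicate 1 was its highest library, level with knockout replicate 1, and the genotypes overlapped throughout, with a log2 fold change of 0.055 (SE 0.44). Zbp1 and Ifi27 also had wild type replicate 1 above wild type replicate 2, and the other 36 members had the opposite order. Zbp1, a sensor of Z-form nucleic acid that can start cell death, was at 242, 158 and 31.7 in the wild type libraries against 465, 133 and 62.8 in knockout, a 14.7-fold range over the 6 libraries. Ifi27 was at 1194, 944 and 764 in the wild type libraries against 1730.1, 778 and 806 in knockout.

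The sensors of foreign nucleic acid had a median log2 fold change of 0.32. Ddx58, which encodes RIG-I, was at 2785, 5215 and 2609.7 in the wild type libraries against 6613, 3201 and 3287 in knockout replicates 1, 2 and 3. Ifih1, which encodes MDA5, was at 1131, 2028 and 916 in the wild type libraries against 2747, 1119 and 1093 in knockout. Both were lowest in wild type replicate 3 and highest in knockout replicate 1, with wild type replicate 2 next. Their log2 fold changes were 0.29 (SE 0.37) and 0.23 (SE 0.43). Dhx58, the related helicase LGP2, had 0.40 (SE 0.58), Eif2ak2, the kinase PKR that halts translation, 0.32 (SE 0.40), and Zbp1 0.55 (SE 0.94).

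The 6 GTPases of the Gbp and Irg families, which are typical targets of type II interferon, had a median log2 fold change of 0.39. Gbp2, a guanylate-binding protein, was at 487, 1353 and 353 in the wild type libraries against 1476, 578 and 398 in knockout. Knockout replicate 1 was only 1.09-fold above wild type replicate 2 there, and its log2 fold change was 0.18 (SE 0.63). Iigp1, an immunity-related GTPase, was at 319, 905 and 187 in the wild type libraries against 1128, 519.9 and 359.8 in knockout, with 0.65 (SE 0.64). In Iigp1 all 3 knockout libraries lay above wild type replicates 1 and 3 and only knockout replicate 1 above wild type replicate 2. Gbp3 had 0.27 (SE 0.63), Gbp7 0.43 (SE 0.44), Igtp 0.40 (SE 0.50) and Irgm1 0.38 (SE 0.47).

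Isg15 is a ubiquitin-like protein that is joined to other proteins, and its enzymes are induced with it. Isg15 was at 271, 711 and 122 in the wild type libraries against 1028, 355 and 198 in knockout, an 8.41-fold range over the 6 libraries, with a log2 fold change of 0.54 (SE 0.78). Usp18, which removes Isg15 and restrains the type I receptor, had 0.26 (SE 0.50). Trim25, a ubiquitin ligase that activates RIG-I, was at 4292, 6562 and 3796 in the wild type libraries against 7518, 4863 and 5017 in knockout. Trim25 had the narrowest range of the 39, 1.98-fold, and a log2 fold change of 0.26 (SE 0.25) with a 95% interval of −0.34 to 0.86. The partners Parp9 and Dtx3l, an ADP-ribosyltransferase and a ubiquitin ligase, had 0.21 (SE 0.45) and 0.45 (SE 0.40), and the neighbouring ADP-ribosyltransferase Parp14 0.53 (SE 0.44). Of the remaining members, Rtp4 and Xaf1 had 0.70 (SE 0.50) and 0.60 (SE 0.47), Ifi44 0.41 (SE 0.71), Ifi35 0.16 (SE 0.34) and Ifi27 0.11 (SE 0.33).

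Between the genotypes, all 39 members had a fold change above 0, and none passed the test. The members' median log2 fold change was 0.40, from 0.055 for Samhd1 to 1.19 for Mx2, beside −0.003 over all genes tested, of which 49.4% were above 0. Limma with Benjamini-Hochberg adjustment over all genes called 0 of 39 members (lowest adjusted p = 0.993), and over all 16042 genes it called 0%. At an unadjusted p under 0.05 limma counted 0 of 39 members higher, against 1.72% of all genes. The smallest unadjusted p among the members was 0.0637, for Mx2. In 0 of 39 members did all 3 knockout libraries lie above all 3 wild type libraries, against 3.85% of all genes.

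**Figure D2:**
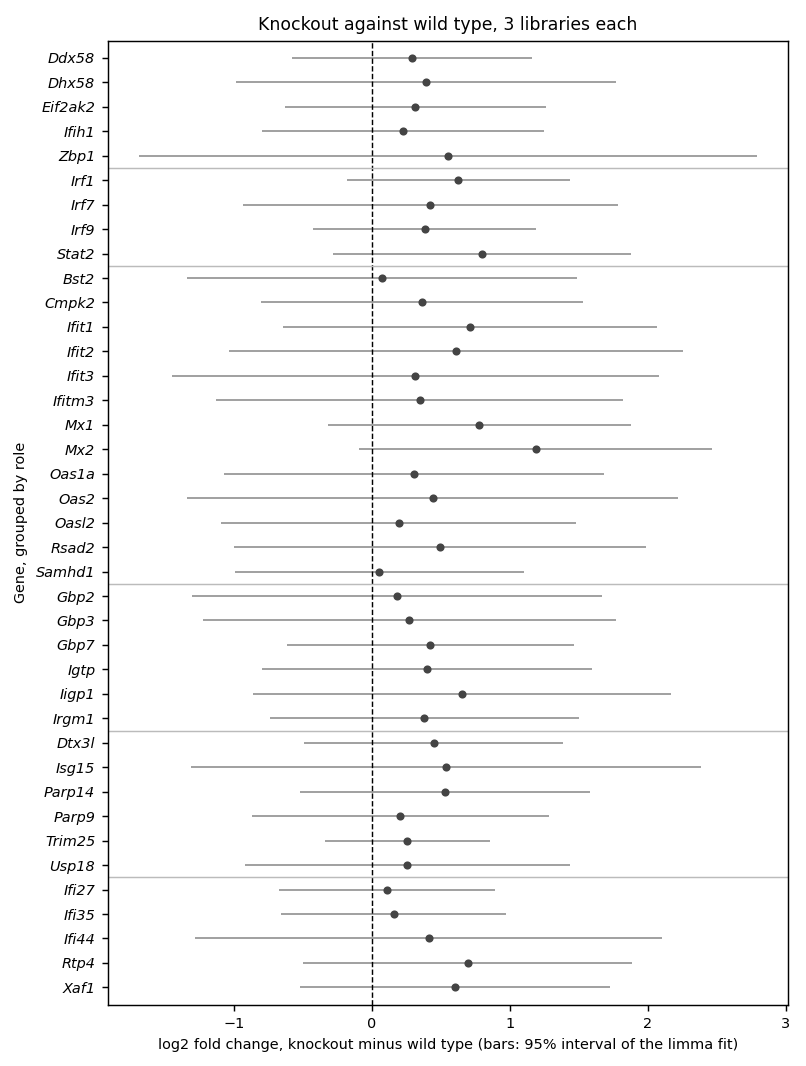
Points are log2 fold changes, knockout minus wild type, of the 39 genes grouped by role, and bars are 95% intervals of the limma fit with 3 libraries per genotype. Every point lies right of 0, from 0.055 (Samhd1) to 1.19 (Mx2), and every interval crosses 0.

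Count models on the recovered reads gave the same calls. EdgeR's quasi-likelihood test with Benjamini-Hochberg adjustment called 0 of 39 members and 0% of all genes, with 0 members at an unadjusted p under 0.05 against 3.17% of all genes. DESeq2 called 0 of 39 members, against 0.114% of the genes to which it gave an adjusted p, and had 2 of 39 members at an unadjusted p under 0.05, Mx2 and Irf1, against 3.27% of all genes it fitted. The members' standard errors were wide, with a median of 0.50 on the log2 scale against 0.20 over all genes, and limma drew them towards those of other genes. The standard error from Mx2's own spread, for example, was 0.68 where the fit used 0.54. A missed threshold at this spread does not show that the genotypes were alike.

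The shared sign of the fold changes rested on single libraries. Without knockout replicate 1, 15 of 39 members were higher in knockout and the median log2 fold change was −0.057. Without wild type replicate 3 the count was 19 of 39 and the median −0.015. Without wild type replicate 2 all 39 were higher, the median was 0.80, and 10 of 39 members had an unadjusted p under 0.05 in limma, against 3.5% of all genes, though 0 passed adjustment. These were Stat2, Rsad2, Irf9, Rtp4, Parp14, Dtx3l, Mx1, Mx2, Iigp1 and Ifit1. Without knockout replicate 3 the median was 0.63, and 2 of 39 members, Irf1 and Mx2, had an unadjusted p under 0.05 in limma, against 7.03% of all genes, a share near the background. Limma's array weights, which give less weight to libraries that deviate, left 29 of 39 above 0 with a median of 0.18. Mx2 stayed above 0 with any 1 library left out, with 0.76 as its lowest value (knockout replicate 1 left out) and 1.68 as its highest (wild type replicate 2 left out).

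**Figure D3:**
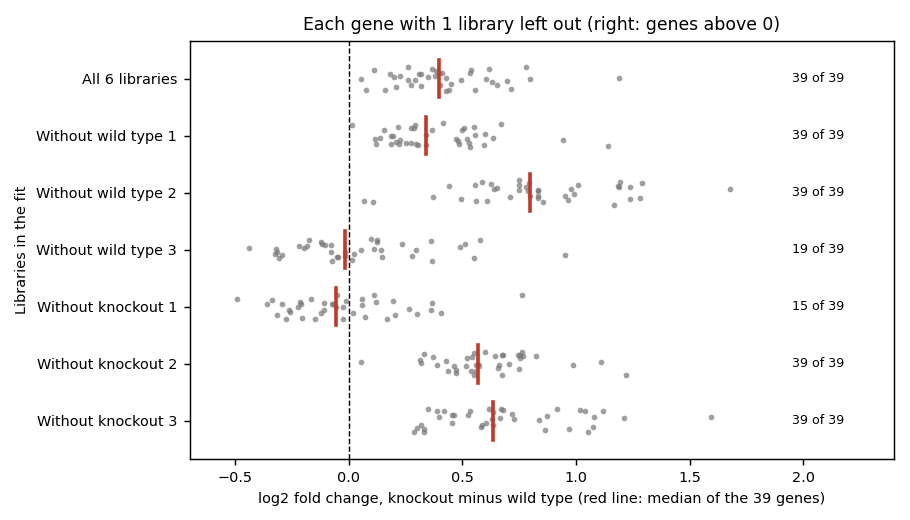
Each grey point is the log2 fold change, knockout minus wild type, of 1 of the 39 genes, and each line of points is a limma fit with all libraries or with the named library left out, spread vertically for view. Red lines are medians, 0.40 with all 6 libraries, and the numbers at the right count genes above 0, which fell to 15 without knockout 1 and to 19 without wild type 3.

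In 17 of 39 members all 3 knockout libraries lay above wild type replicates 1 and 3, and wild type replicate 2 was the library that overlapped them. The same held for 8.47% of all genes tested. This set was picked out after its values were seen. It held Mx1, Mx2, Irf1, Irf9, Stat2, Ifit1, Rsad2, Cmpk2, Ddx58, Rtp4, Xaf1, Gbp7, Irgm1, Iigp1, Parp14, Dtx3l and Trim25. In the other 22 members, among them Isg15, Ifit2, Ifit3, Oas1a, Oas2, Usp18 and Irf7, at least 1 of knockout replicates 2 and 3 lay below wild type replicate 1 or 3.

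Further interferon-stimulated genes, a list of 53 drawn up from the pathway, had the same libraries at the top and the bottom. Knockout replicate 1 was the highest library in 45 of 53 and wild type replicate 3 the lowest in 44 of 53, and knockout replicate 1 with wild type replicate 2 made the highest pair in 36 of 53. Their median log2 fold change was 0.35, with 50 above 0 and 3 below, and limma called 0 of them. The smallest unadjusted p belonged to Oas1b, an oligoadenylate synthetase gene, at 127, 236 and 103 in the wild type libraries against 409, 204 and 214 in knockout. Next was Ifitm1, a relative of Ifitm3, at 14.0, 13.6 and 5.28 in the wild type libraries against 36.8, 19.7 and 14.0 in knockout. The log2 fold change was 0.84 (SE 0.39) for Oas1b and 1.03 (SE 0.53) for Ifitm1. In Oas1b knockout replicates 2 and 3 lay just below wild type replicate 2. Cxcl10, a T cell attractant induced by type II interferon, was at 1055, 4125 and 492 in the wild type libraries against 3973, 1995 and 1394 in knockout and is named here after its values were seen.

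Taken as a list, the upstream machinery varied much less between libraries, though a list mean does not show the spread of its single genes. The list of receptors and kinases held 10 genes, among them a transcription factor of the pathway. Their mean log2(value + 1) was 9.64, 9.67 and 9.52 in the wild type libraries against 9.91, 9.78 and 9.41 in knockout replicates 1, 2 and 3. Their median log2 fold change was 0.078, with 6 above 0 and 4 below. Knockout replicate 1 was above wild type replicate 3 by a median of 1.26-fold there, against 4.18-fold for the 39 members. In 5 of these 10 genes knockout replicate 1 was the highest library, against 20.5% of all genes tested. In 3 of the 10 wild type replicate 3 was the lowest, against 15.9%. For Jak2, a kinase of the type II receptor, the log2 fold change was 0.20 (SE 0.24). The receptor gene Ifnar1 was at 1059, 1109 and 1135 in the wild type libraries against 1052, 1176 and 1043 in knockout, with the genotypes overlapping. Limma called 0 of these 10 genes. Genes for the interferons themselves were not analysed here.

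Among 8 inhibitors of the pathway, Socs3, which blocks Jak kinases and also answers to other cytokines, was at 1328, 1359 and 1249 in the wild type libraries against 4908, 2395 and 1459 in knockout. All 3 knockout libraries lay above all 3 wild type libraries, by a margin that was small for knockout replicate 3, and its log2 fold change was 0.98 (SE 0.40). In limma its unadjusted p was 0.0441 and its adjusted p 0.993. Ptpn2, a phosphatase of Jak kinases, had 0.31 (SE 0.20). The list's median was 0.068, with 6 of 8 above 0 and 0 called by limma. Of the 14 tested genes that sense nucleic acid or lead to interferon induction, 9 were above 0, the median was 0.045 and limma called 0. The smallest unadjusted p there belonged to Traf3, an adaptor, with −0.13 (SE 0.08), and to Irf3, a transcription factor that induces interferon genes, with 0.15 (SE 0.12).

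Markers of cells other than islet cells also varied between the libraries. The 9 tested of 15 lymphocyte markers had a mean log2(value + 1) of 10.26, 4.17 and 4.75 in the wild type libraries against 9.86, 8.74 and 7.15 in knockout replicates 1, 2 and 3. All 9 had a fold change above 0, and limma called 0 of them. Their summed values ran from 347 to 25171 in wild type and from 7385 to 145564 in knockout. The mean lymphocyte level was lowest in wild type replicate 2 (4.17), where the interferon-stimulated genes were second highest. It was next lowest in wild type replicate 3 (4.75), where the interferon-stimulated genes were lowest. Wild type replicate 1 had the highest mean lymphocyte level and an interferon-stimulated level of 9.74, close to that of knockout replicate 3 (9.70). By summed values the highest library was instead knockout replicate 1, at 145564 against 25171 in wild type replicate 1. Of the sum in knockout replicate 1, Ighm held 103162 and Igkc 39487. Knockout replicate 1 also had the highest interferon-stimulated level.

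**Figure D4:**
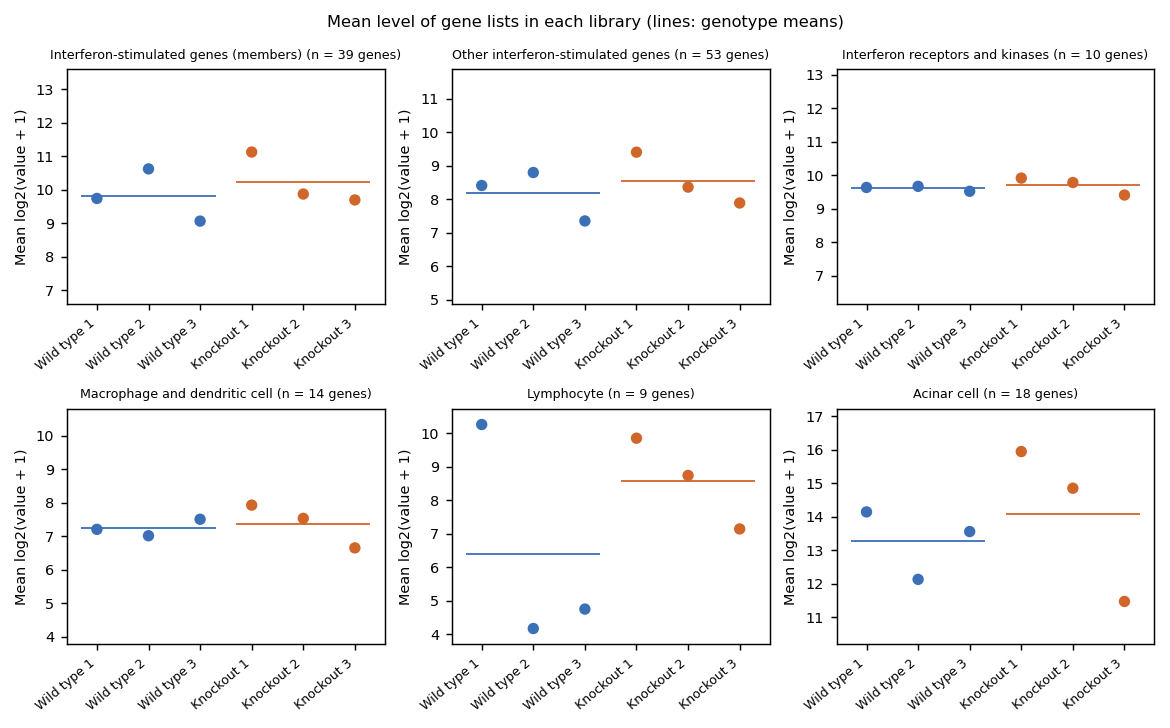
Points are mean log2(value + 1) of each gene list in each library, lines are genotype means of 3 libraries, and every panel spans 7 log2 units. Members and further interferon-stimulated genes both have knockout 1 and wild type 2 on top, whereas the lymphocyte level is lowest in wild type 2 and the mean of the list of receptors and kinases varies little.

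The 14 tested of 15 macrophage and dendritic cell markers had mean levels of 7.20, 7.01 and 7.50 in the wild type libraries against 7.93, 7.53 and 6.65 in knockout replicates 1, 2 and 3, with summed values from 4394 to 6702 in wild type and from 3419.6 to 7744 in knockout. Of the 14, 9 were above 0 and 5 below, with a median log2 fold change of 0.15 and 0 called by limma. Wild type replicate 2 had the lowest of the wild type levels and sums. C1qa, a complement subunit, was at 544, 765 and 687 in the wild type libraries against 928, 1009 and 713 in knockout, with 0.41 (SE 0.18), the smallest unadjusted p of that list. Csf1r, with the lowest fold change of the list and known as the receptor that defines the lineage, was at 683, 545 and 985 in the wild type libraries against 390.2, 845 and 294 in knockout, with −0.64 (SE 0.41). Siglech, a marker of plasmacytoid dendritic cells, which are known as strong producers of type I interferon, was at 11.0, 14.5 and 7.03 in the wild type libraries against 19.6, 30.9 and 17.9 in knockout. Its log2 fold change was 1.02 (SE 0.41), with an unadjusted p of 0.0434 and an adjusted p of 0.993 in limma. All 5 genes of that marker list, of which Bst2 is also a member, were above 0, and limma called 0 of them. The list's mean level was 7.05, 5.86 and 4.94 in the wild type libraries against 7.085, 6.78 and 6.16 in knockout replicates 1, 2 and 3. In that mean wild type replicate 1 was nearly level with knockout replicate 1, and wild type replicate 2 was second lowest. Of the natural killer cell markers 1 of 7 was tested and of the neutrophil markers 1 of 6. The untested markers of these lists, and of the lymphocyte and macrophage lists, were not analysed here and were not removed by the filter on low values. The acinar level, from the enzyme-secreting cells around islets, was 14.14, 12.12 and 13.55 in the wild type libraries against 15.94, 14.85 and 11.46 in knockout replicates 1, 2 and 3. Of the 18 acinar markers 17 were above 0, with 0 called by limma. Their level was highest in knockout replicate 1 and second lowest in wild type replicate 2, the pair of libraries with the highest interferon-stimulated levels. With the acinar, lymphocyte or macrophage level as a covariate in limma, the members' median log2 fold change was 0.30, 0.29 or 0.35, and 36, 35 or 38 of 39 stayed above 0. The endothelial markers, from the vessels of the islet, had mean levels of 9.32, 9.57 and 9.38 in the wild type libraries against 9.84, 9.68 and 9.66 in knockout replicates 1, 2 and 3. In that mean all 3 knockout libraries lay above all 3 wild type libraries. Knockout replicate 1 was the highest and wild type replicate 2 the highest of its group, as in the mean of the members. The single markers did not share this order. In 1 of the 9 did all 3 knockout libraries lie above all 3 wild type libraries. Kdr was highest in wild type replicate 2, Emcn in knockout replicate 2, and Vwf was lowest in wild type replicate 2, unlike the mean of these markers. Their summed values ran from 8923 to 10849 in wild type and from 10674 to 11351 in knockout. Of 9 markers 8 were above 0, with a median log2 fold change of 0.23. Egfl7 and Vwf had an unadjusted p under 0.05 in limma, and 0 of the 9 passed adjustment. The 9 stellate cell and fibroblast markers had mean levels of 6.39, 8.52 and 7.73 in the wild type libraries against 7.74, 7.71 and 6.76 in knockout. Wild type replicate 2 was highest there, and knockout replicate 1 came next, nearly level with wild type replicate 3 and knockout replicate 2. Of these markers 5 were above 0 and 4 below, with a median log2 fold change of 0.11 and 0 called by limma. The covariate fits covered only the acinar, lymphocyte and macrophage lists and were read only for the difference between genotypes. The part of any of these cell types in the members' levels was therefore not tested.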

How the data were processed

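The 6 islet libraries, 3 per genotype, were grouped and numbered by their labels. HISAT2 is named in the submitters' processing notes. Its version is not given in the sources used here, and neither are the counting tool, build, annotation and strand setting, so genes that overlap or have near-identical copies may share reads.

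The deposited signal is a gene's read count divided by the authors' size factor for the library. In each library 100% of values were whole multiples of a step (0.879 to 1.23) within 0.01 reads, which gave back 22071895 to 26806787 reads per library. No value in the table was 0.

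The filter asked for a value of 10 or more in 3 or more libraries, which 16042 of 18437 genes met. Limma 3.58.1 (R 4.3.3) fitted log2(value + 1) by genotype with a trend on mean level, two-sided, called at a Benjamini-Hochberg adjusted p under 0.05 over all genes. This scale understates fold changes of low genes. EdgeR 4.0.16 and DESeq2 1.42.0 used the recovered reads. The limma fit was tested on simulated data. Other alternatives changed the pseudocount, filter, scaling, trend, array weights, marker covariates, replicate block or set of libraries.

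Members and lists were chosen with earlier results of these data known, so the list has no test of its own. Named genes are all members, Sec16b and the 2 of smallest unadjusted p in each other pathway list, of which 1 is not reported here. Ifnar1, Cxcl10 and the marker genes were named after their values were seen. Promoters were RefSeq windows (GRCm38.p6) matched by symbol.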

Additional observations from a re-analysis of the deposited data

How the results depend on the processing

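In each of the 20 alternatives limma, edgeR or DESeq2 called 0 of 39 members at an adjusted p under 0.05. The other pseudocounts, filters, scalings, the fit without a trend, edgeR, DESeq2 and the replicate block kept all 39 fold changes above 0. Leaving out 1 library gave a median log2 fold change from −0.057, with knockout replicate 1 out, to 0.80, with wild type replicate 2 out, a count of members above 0 from 15 to 39, and from 0 to 10 members at an unadjusted p under 0.05. Without wild type replicate 3 the median was −0.015. The count at an unadjusted p under 0.05 was 2 with DESeq2 and 1, Mx2, with the replicate block, against 864 of all 16042 genes in that fit. Same-numbered wild type and knockout libraries had deviations that correlated over genes by 0.43, 0.004 and 0.37 for numbers 1, 2 and 3. The labels do not say whether equal numbers mark pairs, and the main fit did not take them as pairs. Wild type and knockout replicates 1 and 3 correlated best with the library of their own number, and replicates 2 did not. No scaling moved the median of all genes by more than 0.1.

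Fold changes of single members that turned below 0 did so with array weights (Bst2 −0.17, Gbp2 −0.045, Ifi27 −0.023, Ifi35 −0.034, Ifih1 −0.029, Oas1a −0.0083, Oas2 −0.17, Oasl2 −0.21, Parp9 −0.15 and Usp18 −0.016), the acinar covariate (Bst2 −0.074, Ifi27 −0.026 and Samhd1 −0.15), the lymphocyte covariate (Bst2 −0.27, Ifi27 −0.15, Samhd1 −0.42 and Zbp1 −0.27) and the macrophage covariate (Samhd1 −0.026). With 1 library left out, 24 members crossed 0, 24 of them when it was knockout replicate 1 and 20 when it was wild type replicate 3. Their log2 fold changes ran as follows: Bst2 −0.49 to 0.39, Cmpk2 −0.023 to 0.85, Ddx58 −0.050 to 0.61, Dhx58 −0.12 to 0.79, Eif2ak2 −0.027 to 0.65, Gbp2 −0.36 to 0.75, Gbp3 −0.30 to 0.75, Ifi27 −0.26 to 0.31, Ifi35 −0.15 to 0.44, Ifi44 −0.32 to 1.01, Ifih1 −0.21 to 0.56, Ifit3 −0.32 to 0.98, Ifitm3 −0.12 to 0.95, Igtp −0.069 to 0.75, Irf7 −0.10 to 0.79, Irgm1 −0.011 to 0.83, Isg15 −0.11 to 1.19, Oas1a −0.21 to 0.67, Oas2 −0.32 to 1.11, Oasl2 −0.34 to 0.60, Parp9 −0.21 to 0.58, Samhd1 −0.31 to 0.42, Usp18 −0.19 to 0.62 and Zbp1 −0.31 to 1.21. The causes were not tested. With the lowest member value at 31.7 (Zbp1 in wild type replicate 3), the spread between 3 libraries exceeds the counting error of the members.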
